A study of Arabidopsis thaliana with 24 samples.

Results

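The chloroplast and mitochondrial genes of the Arabidopsis accession Col-0 were compared between diploid and tetraploid seedlings. They were taken as every row of the Col-0 expression table whose locus identifier begins with ATCG (chloroplast) or ATMG (mitochondrial). This gave 88 chloroplast and 89 mitochondrial identifiers, 177 of the 23202 in the table. The corresponding table for the accession Ler has 23059 rows and lists 0 such identifiers, so the comparison exists for Col-0 alone.

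The study asked how doubling the genome changes transcripts and a repressive histone mark in these accessions. The RNA groups used here were diploid (2x) Col-0 and tetraploid (4x) Col-0, with 2 libraries each, from whole seedlings 2 weeks old at 22 °C. No transgene, mutation or chemical treatment is given for either group. The labels describe long and short days together and do not say which applied to these libraries, nor how the tetraploid line was made or whether the libraries came from separate plantings. The p-values thus reflect only how far these libraries differ, which can be technical variation. RNA was selected by its poly(A) tail before sequencing. In bulk seedlings, fewer cells of a type and less RNA per cell cannot be told apart.

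Plant cells carry small genomes in their chloroplasts and mitochondria, each in many copies per cell. The chloroplast genome encodes core subunits of both photosystems, of the cytochrome complex, of the ATP synthase and of an NADH dehydrogenase-like complex, with the large subunit of Rubisco, a bacterial-type RNA polymerase and part of the ribosome. The mitochondrial genome encodes subunits of the respiratory chain, of the ATP synthase and of the ribosome, and factors of cytochrome c maturation. Most proteins of both organelles, including the factors that transcribe, edit and degrade organelle RNA, are encoded in the nucleus. Mature organelle messengers are not, as a rule, held by a long poly(A) tail, and in plant organelles a tail commonly marks a transcript for decay. Counts in a library selected for poly(A) are therefore not a direct measure of organelle transcript abundance.

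The reference gene table (RefSeq, assembly TAIR10.1) lists 85 protein-coding, 37 tRNA and 7 rRNA genes for the chloroplast and 33 protein-coding genes for the mitochondrion. None of the 177 identifiers was paired with a symbol in that table, so they are given by identifier, without a gene name or role. Normalized counts were not divided by transcript length, so levels are compared between libraries and not between identifiers.

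The deposited table gives, for each identifier, a mean normalized count over the 4 libraries, a log2 fold change with its standard error, and a p-value. Whole read counts in each library were recovered from the digits of the mean for all 177 identifiers. For each of these, exactly 1 combination of reads matched the mean. For 142 it also gave the deposited fold change to within 1.2e-05 on the log2 scale, and the other 35, of very few reads, were matched by the mean alone. The recovered libraries could be placed by ploidy but not by replicate number, and are called diploid A and B and tetraploid A and B. Fold changes are tetraploid over diploid. The headers do not state this sign, and it was inferred from FLC, the repressor of flowering known to be high in tetraploid Col-0, whose normalized counts were 177 and 135 in one pair of libraries and 865 and 1064 in the other. All directions below, and which pair is called tetraploid, depend on it.

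Organelle reads were a very small share of these libraries. The mean counts of the chloroplast identifiers summed to 12531 normalized counts, or 0.0561% of the table, and those of the mitochondrial identifiers to 692, or 0.0031%. Recovered nuclear reads, which leave out genes with a mean count above 5000, came to 10029900 to 12635600 per library. In the same libraries the organelle reads came to 11747 in diploid A, 12779 in diploid B, 19233 in tetraploid A and 9146 in tetraploid B. The 5 chloroplast identifiers of highest mean count held 36.4% of the chloroplast normalized count, and the 5 leading mitochondrial identifiers held 47.9% of the mitochondrial one. RBCS1A and RBCS3B, nuclear genes for the small subunit of Rubisco and markers of green tissue, had mean counts of 570856 and 327526.

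Among the chloroplast identifiers, the authors' deposited table gave 1 as higher and 1 as lower in the tetraploid at an adjusted p below 0.05, and 86 were not called. The background over all 21420 tested genes was 15.4% called, made up of 7.13% higher and 8.23% lower. The chloroplast share, 2 of 88 (2.27%), lay below that background. Among the mitochondrial identifiers, 0 of the 60 with an adjusted p were called in the authors' deposited table (DESeq2), where 2 had an unadjusted p below 0.05. The remaining 29 mitochondrial identifiers had 1 to 4 reads in all and no adjusted p. A test with limma on the recovered counts called 6 chloroplast and 2 mitochondrial identifiers, where the background was 22.4% of all genes in that test.

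ATCG00630 was the chloroplast identifier called higher. Its normalized counts were 139 and 164 in the diploid libraries and 424 and 322 in the tetraploid libraries. The ploidies did not overlap, and the tetraploid mean was 2.47 times the diploid mean. The authors' deposited table gives a log2 fold change of 1.30 ± 0.22 (SE, 2 libraries per ploidy) and an adjusted p of 8.65e-08 (DESeq2).

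ATCG00190 was the chloroplast identifier called lower, and the third highest of the chloroplast identifiers by mean count. Its normalized counts were 1022 and 1386 in the diploid libraries and 689 and 672 in the tetraploid libraries. The 2 tetraploid libraries were nearly equal and both lay below the diploid libraries, whose mean was 1.77 times theirs. The authors' deposited table gives a log2 fold change of −0.82 ± 0.14, with an adjusted p of 2.22e-07 (DESeq2). The identifiers just before it in the table had smaller values: ATCG00180 had a log2 fold change of −0.50 ± 0.48 and ATCG00170 one of −0.02 ± 0.25, neither of them called. The call for ATCG00190 was lost when a change of at least 2-fold was also required.

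A further 7 organelle identifiers had an unadjusted p below 0.05 (authors' DESeq2) without passing the adjustment. In all 7 both tetraploid libraries lay above both diploid libraries. Because that p comes from the same 4 libraries, the lack of overlap is largely a result of the selection and adds no separate support. Counting the called ones too, 7 of 88 chloroplast and 2 of 89 mitochondrial identifiers had such a p (authors' DESeq2). Among nuclear genes the count was 5174 of 23025, a larger share, so the 7 do not stand out from the table by number. ATCG00670 had 77.0 and 127 normalized counts in the diploids and 182 and 166 in the tetraploids (log2 fold change 0.78 ± 0.30, adjusted p = 0.058, authors' DESeq2). ATCG01130 had 76.1 and 126 in the diploids and 205 and 143 in the tetraploids (0.79 ± 0.31, adjusted p = 0.0708, authors' DESeq2). ATCG01020, of higher count, had 250 and 491 in the diploids and 675 and 777 in the tetraploids. Its 2 diploid libraries differed as much as the ploidies did, and its log2 fold change of 0.97 ± 0.48 had an adjusted p of 0.181 (DESeq2). Leaving out 1 diploid library moved the limma log2 fold change to 0.46 or 1.17 for ATCG00670 and to 0.44 or 1.16 for ATCG01130. The mitochondrial ATMG00520 had 5.25 and 4.05 normalized counts in the diploids and 23.5 and 21.9 in the tetraploids. It rests on 6, 4, 23 and 20 reads, and its log2 fold change of 2.28 ± 0.90 had an adjusted p of 0.0666 (DESeq2). With limma on the recovered counts, ATCG00670, ATCG01020, ATCG00740, ATCG00810, ATMG00520 and ATMG00080 were also called, with adjusted p from 0.0113 to 0.0451, while ATCG01130 was not.

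**Figure D1:**
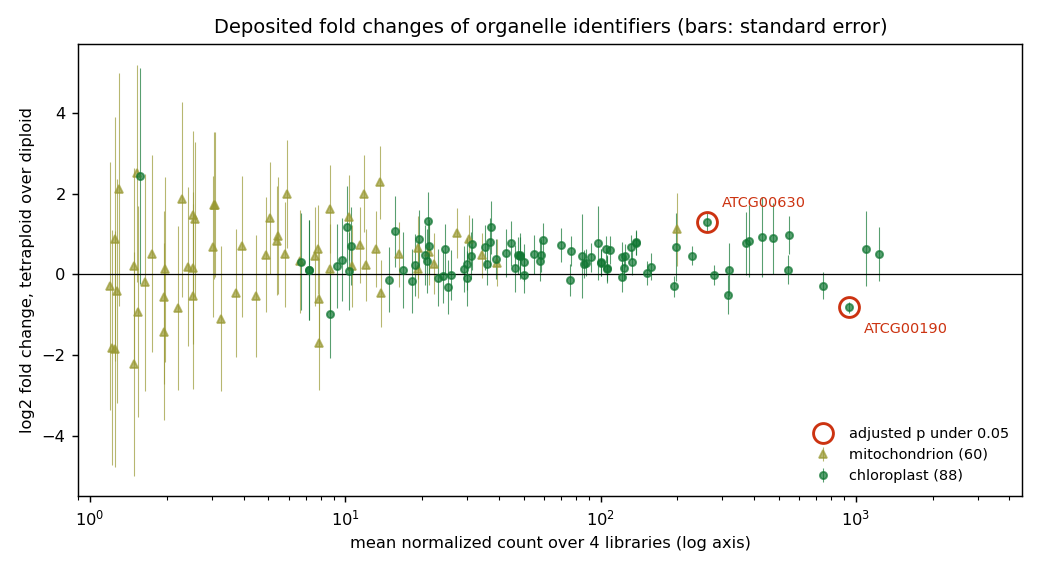
Log2 fold change (tetraploid over diploid, vertical axis) of the 148 organelle identifiers with an adjusted p, against the mean normalized count over the 4 Col-0 libraries (log axis). Points are the deposited values and bars the standard error. ATCG00630 at 1.30 and ATCG00190 at −0.82, both circled, have short bars (0.22 and 0.14), while ATCG00490 and ATCG00020, the 2 of highest count, have long ones (0.67 and 0.93).

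Most fold changes had the same sign without reaching significance. Of the 88 chloroplast identifiers, 72 had a positive log2 fold change and 16 a negative one, with a median of 0.40. Of the 89 mitochondrial identifiers, 63 were positive and 26 negative. These include 18 without a read in the diploids and 7 without a read in the tetraploids, whose sign rests on at most 3 reads. Where the mean count reached 10, the minimum used below for comparing libraries over identifiers, 66 of 81 chloroplast and 17 of 18 mitochondrial ones were positive, with medians of 0.45 and 0.59. The median over the 18867 nuclear genes with such a mean count was −0.0022.

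The sign of those medians depended on 1 library. When the log2 ratio was taken from the recovered counts, the median was 0.44 for the chloroplast and 0.57 for the mitochondrion with all libraries. Without tetraploid A it turned negative, to −0.20 and −0.11. Without tetraploid B it was 0.75 and 1.02. Leaving out diploid A gave 0.30 and 0.27, and leaving out diploid B gave 0.51 and 1.02.

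Tetraploid A also had the highest summed counts in both organelles. The chloroplast identifiers summed to 9822 normalized counts in diploid A, 12346 in diploid B, 18493 in tetraploid A and 9463 in tetraploid B. The mitochondrial identifiers summed to 458, 602, 1177 and 531 in the same order. The ploidies overlapped in both: tetraploid B lay below both diploids for the chloroplast and between them for the mitochondrion. Tetraploid A exceeded tetraploid B by 1.95-fold for the chloroplast and 2.22-fold for the mitochondrion. Diploid B exceeded diploid A by 1.26-fold and 1.32-fold. The recovered nuclear genes differed by 1.01-fold between the tetraploid libraries after the same scaling. The chloroplast excess was not carried by a few identifiers alone, since without the 10 of highest mean count the ratio was still 1.70. With 2 libraries per ploidy, an exact two-sided permutation test of such a sum cannot give a p below 0.333.

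ATCG00490, the chloroplast identifier of highest mean count, illustrates the difference. Its normalized counts were 1060 and 976 in the diploid libraries, 2108 in tetraploid A and 777 in tetraploid B. ATCG00020, next by mean count, had 900 and 821 in the diploids, 2154 in tetraploid A and 521 in tetraploid B. For both, 1 tetraploid library lay above and the other below both diploids. Their log2 fold changes were 0.50 ± 0.67 and 0.64 ± 0.93 in the authors' deposited table, with adjusted p of 0.765 and 0.794 (DESeq2). ATCG00480, also among the 5 of highest mean count, was more even, with 648 and 984 in the diploids and 747 and 592 in the tetraploids (−0.29 ± 0.34).

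The mitochondrial identifier of highest mean count, ATMG00030, behaved like ATCG00020. It had 130 and 123 normalized counts in the diploids, 438 in tetraploid A and 110 in tetraploid B, and a log2 fold change of 1.12 ± 0.91. ATMG01190 had 26.3 and 44.6 in the diploids, 65.5 in tetraploid A and 20.8 in tetraploid B. In both, tetraploid A was the highest of the 4 libraries and tetraploid B the lowest. The other leading mitochondrial identifiers did not share that order. ATMG00660 was highest in tetraploid B, with 20.1 and 37.5 in the diploids and 33.7 and 45.9 in tetraploid A and B. ATMG00670 had 13.1 and 30.4 in the diploids and 44.0 and 35.0 in the tetraploids, and ATMG00090 had 22.8 and 13.2 against 43.0 and 30.6. For both of the latter the ploidies did not overlap, though neither was called (0.87 ± 0.60 and 1.03 ± 0.62).

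**Figure D2:**
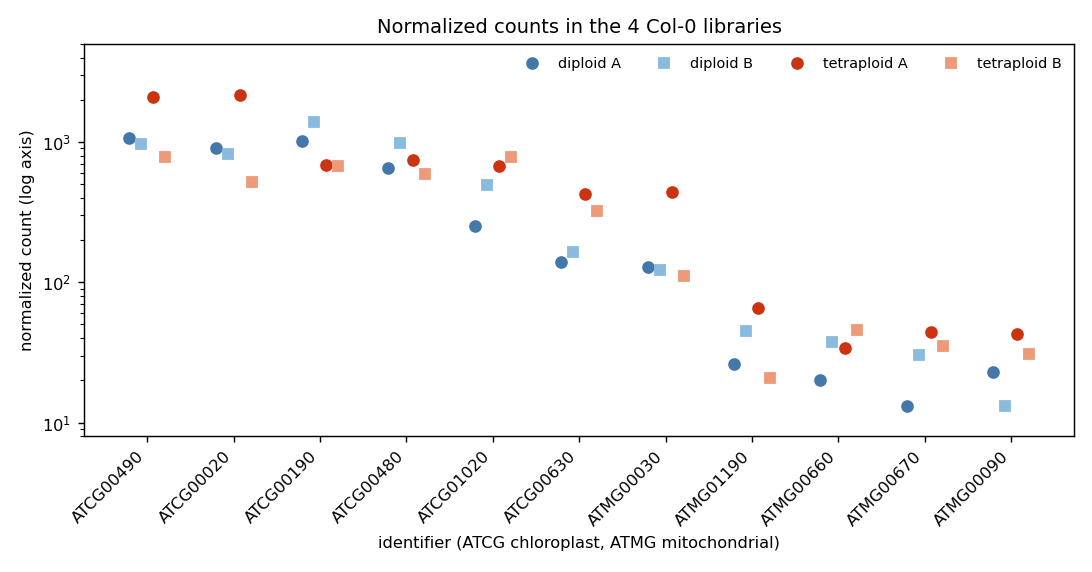
Normalized count (log axis) in each of the 4 Col-0 libraries for the 5 chloroplast and 5 mitochondrial identifiers of highest mean count and for ATCG00630. Each point is 1 library, with blue for diploid and red for tetraploid. The tetraploid points are far apart for ATCG00490, ATCG00020 and ATMG00030, close together and low for ATCG00190, and both high for ATCG00630.

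Counted over identifiers, 33 of 81 chloroplast (40.7%) and 8 of 18 mitochondrial ones (44.4%) were at least 2-fold higher in tetraploid A than in tetraploid B. The share over all 18327 recovered genes with such a mean count was 1%, and over nuclear genes alone it was 0.785% (143 of 18228). None of these 81 chloroplast identifiers was 2-fold higher in tetraploid B. Among identifiers whose mean count reached 100, where counting error is smaller, 11 of 33 chloroplast ones (33.3%) passed 2-fold, with 0.174% over all genes and 0.0873% (12 of 13746) over nuclear genes. The median log2 ratio of tetraploid A to B was 0.78 for the chloroplast and 0.79 for the mitochondrion, and the nuclear median was 0.0014. The diploid libraries differed less, with a median log2 ratio of diploid A to B of −0.39 for the chloroplast, −0.30 for the mitochondrion and −0.0051 for nuclear genes. Within each ploidy, A is the library of larger size factor (1.14 against 0.987 in the diploids, 0.978 against 0.915 in the tetraploids). The letters carry no other information, so A of one ploidy has no known link to A of the other. The ratios are therefore set side by side by size.

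**Figure D3:**
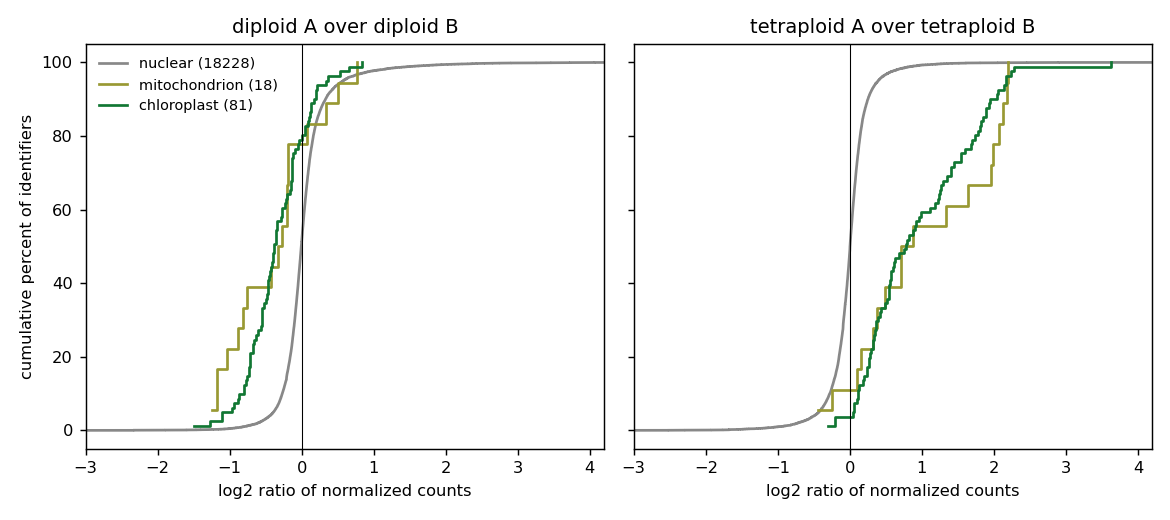
Cumulative percent of identifiers (vertical axis) against the log2 ratio of normalized counts, each with 0.5 added, between the 2 diploid libraries (left) and the 2 tetraploid libraries (right), for identifiers whose mean count reached 10. Nuclear genes (18228) centre on 0 in both panels. The chloroplast (81) and mitochondrial (18) curves lie to the left of 0 at their medians for the diploids (−0.39 and −0.30) and to the right for the tetraploids (0.78 and 0.79).

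Of those 12 nuclear genes, 1 had at least 100 normalized counts in both tetraploid libraries, and it was singled out after its values were seen. AT2G01021, a short protein-coding gene that the reference table places directly beside nuclear rRNA genes, had 45.5 and 60.8 normalized counts in the diploids, 2705 in tetraploid A and 1038 in tetraploid B. It was thus highest in the same library as the organelle sums, at 2.61-fold over tetraploid B. It differed from them in that tetraploid B also lay far above the diploids, and its log2 fold change of 5.14 ± 0.70 was called (adjusted p = 1.41e-11, authors' DESeq2). Whether its reads and the organelle reads share a source was not tested.

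In 32 of the 81 chloroplast identifiers (39.5%) and 6 of the 18 mitochondrial ones (33.3%), tetraploid A lay above and tetraploid B below both diploid libraries. Over all genes with such a mean count, 3.86% had this order and 3.66% the reverse order. None of the 81 chloroplast or 18 mitochondrial identifiers had the reverse order. Both tetraploid libraries lay above both diploids for 23 chloroplast identifiers (28.4%) and 4 mitochondrial ones (22.2%), close to or below the 32.1% found over all genes. Both lay below for 1 chloroplast identifier, ATCG00190, and 1 mitochondrial one, ATMG01330, where the share over all genes was also 32.1%.

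The authors' standard errors were wide for most chloroplast identifiers of high count, and the tetraploid libraries differed in many of these but not in all. ATCG01020 had a standard error of 0.48 with a ratio of tetraploid A to B of 0.87. For chloroplast identifiers with a mean count from 300 to 1500 the median standard error was 0.66 on the log2 scale (12 identifiers), while nuclear genes in that range had 0.14 (7109 genes). From 100 to 300 it was 0.32 (21 identifiers) against 0.24. From 10 to 30 it was 0.75 against 0.76. ATCG00190 lay in the highest of these ranges and had a standard error of 0.14, close to the nuclear median there.

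The ratio of tetraploid A to B varied along the chloroplast table. In table order the 33 identifiers that passed 2-fold formed 14 runs, of which 6 were single identifiers, 4 were pairs and 4 were longer. All 7 identifiers counted from ATCG00270 to ATCG00360 were 3.28-fold to 4.52-fold higher in tetraploid A. Among them ATCG00340 had 254 and 335 normalized counts in the diploids, 918 in tetraploid A and 203 in tetraploid B. Its neighbour ATCG00350 had 318 and 348, then 978 and 255. None of the 7 was called, and their log2 fold changes ran from 0.26 to 1.17 with standard errors from 0.56 to 0.99. The 5 from ATCG00070 to ATCG00140 were 2.28-fold to 2.55-fold higher in tetraploid A, and the 4 from ATCG01050 to ATCG01080 were 2.72-fold to 14.98-fold higher. The largest value in that last stretch, at ATCG01070, rests on 32 reads in tetraploid A and 2 in tetraploid B.

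Other stretches were nearly even between the tetraploid libraries. The 11 identifiers from ATCG00740 to ATCG00840 had ratios from 1.07 to 1.48, and 10 of them had a positive log2 fold change, with a median of 0.47. Within it ATCG00790 had 157 and 229 normalized counts in the diploids and 274 and 255 in the tetraploids (0.46 ± 0.23, adjusted p = 0.207, DESeq2). The 5 from ATCG00630 to ATCG00670 had ratios from 0.81 to 1.32 and positive log2 fold changes from 0.39 to 1.30. ATCG00630, the identifier called higher, begins that stretch. Neighbouring organelle genes are often transcribed together into one precursor, so identifiers in a stretch are not independent. The stretches described were chosen after their values were seen, and whether the ratios cluster was not tested.

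**Figure D4:**
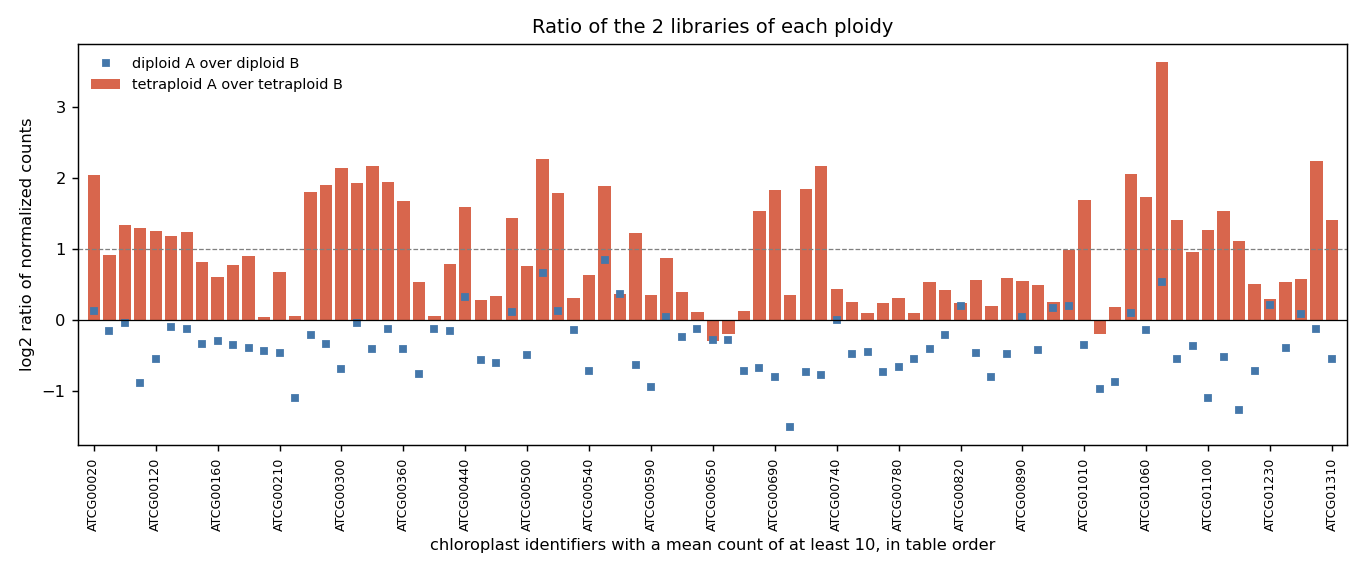
Log2 ratio of normalized counts (each with 0.5 added) for the 81 chloroplast identifiers whose mean count reached 10, in table order, not all of them labelled. Bars give tetraploid A over tetraploid B and squares diploid A over diploid B; the dashed line marks 2-fold. Bars pass 2-fold throughout ATCG00270 to ATCG00360, in other runs such as ATCG00070 to ATCG00140, and at scattered pairs and single identifiers. They stay below it from ATCG00740 to ATCG00840.

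Some chloroplast identifiers had nearly the same reads as another. As background, the chloroplast genome holds a large repeat in 2 copies, and the reference table lists 7 of its protein-coding symbols more than once. ATCG00870 and ATCG01270 had the same 2, 12, 6 and 8 reads. ATCG00890 had 105, 88, 129 and 82 reads and ATCG01250 had 106, 86, 129 and 81. ATCG00900 and ATCG01240 differed by at most 3 reads in any library. Whether these 3 pairs are copies that share or split reads was not tested. The sources used here do not say how the authors assigned reads with several matches. The members of a pair are therefore not separate evidence. Both members of each pair were nevertheless kept in the counts and medians of chloroplast identifiers given here. The nuclear genome also carries copies of organelle DNA, and reads cannot be divided between such copies and the organelle here. The use of strand in counting is not stated either, so overlapping and antisense transcripts cannot be told apart.

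Few mitochondrial reads were present. Of the 89 mitochondrial identifiers, 71 had fewer than 40 reads over the 4 libraries, and 28 had at most 3. There were 18 without a read in the diploids and 7 without a read in the tetraploids, with at most 3 reads in the other ploidy, so no fold change is given for them. Only 7 chloroplast identifiers had fewer than 40 reads, and all had reads in both ploidies. At this depth most mitochondrial identifiers could show no moderate change, and the absence of calls among them does not show that they did not differ.

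Nuclear genes for organelle gene expression were examined beside the organelle identifiers, from 5 lists. Of their 49 genes, all with an adjusted p, 6 were higher and 4 lower in the authors' deposited table (background 15.4% called). Their median log2 fold change was 0.04. None was 2-fold higher in tetraploid A than in tetraploid B: among the 46 with recovered reads the ratio of tetraploid A to B ran from 0.54 to 1.21. In Ler, the authors' deposited table (DESeq2) called 0 of the 48 with an adjusted p, where 5.1% of all genes were called. Of the 48, 7 had an unadjusted p below 0.05. The share of all Ler genes with such a p was not computed, so that count has no background here.

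The list of organelle RNA polymerases and sigma factors held 4 of the 10 calls among its 8 genes (background 15.4% called). SCA3 (also called RPOTp), a phage-type RNA polymerase of the chloroplast, had 1433 and 1478 normalized counts in the diploids and 795 and 854 in the tetraploids. It fell by 0.82 ± 0.11 on the log2 scale (adjusted p = 8.84e-13, authors' DESeq2), and the ploidies did not overlap. SIGA (SIG1) and SIGF (SIG6), sigma factors that direct the bacterial-type polymerase to promoters, fell by 0.50 ± 0.07 and 0.25 ± 0.07. SIGE (SIG5), the sigma factor known for its response to light and stress, rose by 0.97 ± 0.07 (adjusted p = 2.99e-38, authors' DESeq2). The other 4, SIG2, SIGC, SIG4 and the phage-type polymerase gene MGP3, were not called.

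As background for each list below, 15.4% of all tested Col-0 genes were called. Among 13 proteins associated with the chloroplast polymerase, PDE312 (PTAC10) rose by 0.34 ± 0.08 and FLN1 fell by 0.41 ± 0.10, and 11 were not called. None of the 7 genes of organelle RNA decay and processing was called, and 0 had an unadjusted p below 0.05 (authors' DESeq2). Of the nuclear genes, 5174 of 23025 had such a p, and a list of 7 is too short for 0 to set it apart. The 7 include RIF10, the chloroplast polynucleotide phosphorylase that degrades and adds RNA tails, at 0.12 ± 0.08. Of 7 RNA editing factors, MORF6 rose by 0.43 ± 0.12, from 661 and 664 normalized counts to 863 and 926, and RIP1 (MORF8) rose by 0.32 ± 0.08. Of 14 genes of organelle DNA maintenance, GYRB1, a gyrase subunit, rose by 0.32 ± 0.09 and POLGAMMA2, an organelle DNA polymerase, by 0.28 ± 0.10. The remaining 12 were not called.

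**Figure D5:**
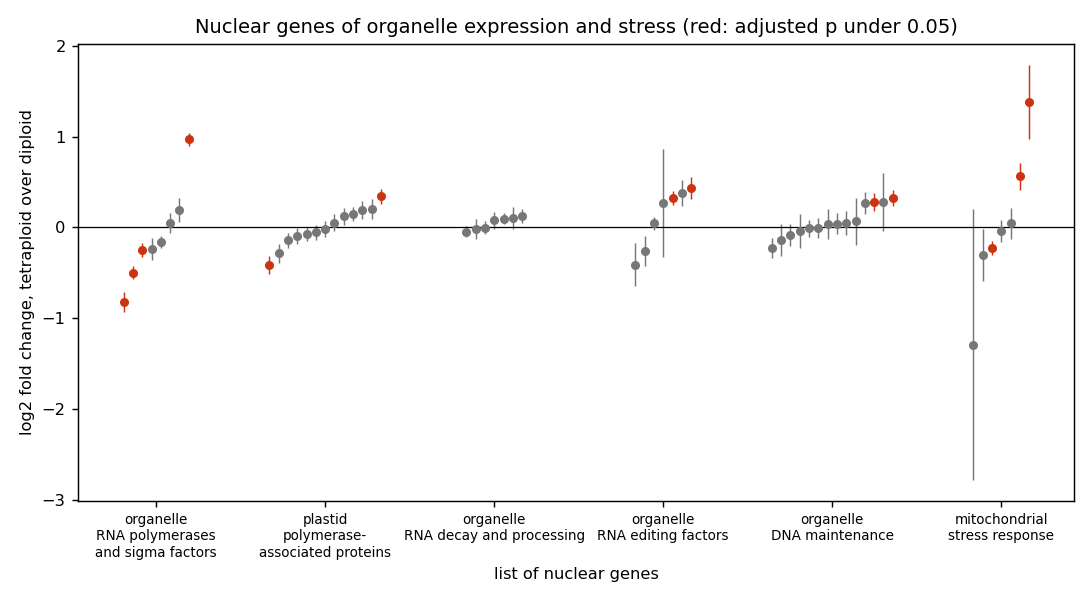
Log2 fold change (tetraploid over diploid, vertical axis) of nuclear genes in 5 lists of organelle gene expression and 1 list of mitochondrial stress, each point a gene with its standard error. Red points passed the authors' adjusted p of 0.05. The largest changes in the first list are SCA3 at −0.82 and SIGE at 0.97. No point of the RNA decay list is red, which for 7 genes and a background of 15.4% called does not set that list apart.

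Markers of tissue were read beside the organelle counts. Of 6 green leaf markers, RBCS1A and RBCS3B were not called (−0.04 ± 0.05 and 0.07 ± 0.06). CAB3 and LHCB2.2 were higher and CAB2 and LHCB2.1 lower; these genes for light-harvesting proteins are near-identical copies, so their separate changes are uncertain. Mean counts of the 6 ran from 46514 to 570856. Of 8 root markers 6 were listed, and SHR was higher (0.47 ± 0.15) while 5 were not called. Log2 fold changes of the 6 had a median of 0.32. They ran from −3.86 ± 2.89 for SHV2 (COBL9) to 1.45 ± 0.85 for CASP1, both with few reads. As background for both marker lists, 15.4% of all tested Col-0 genes were called. The reads of the 6 leaf markers were not recovered by library, so their part in the difference between tetraploid A and B was not tested.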

How the data were processed

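RNA was measured in 4 Col-0 libraries (2 per ploidy); the Ler table was read for nuclear genes only, and the 16 chromatin libraries were not analysed here. HISAT2, Subread, DESeq2 and build TAIR10 are named, without versions, per the submitters' processing notes. Per the file headers, the authors deposited the mean normalized count (a signal: reads divided by size factors), the log2 fold change with its standard error on the log2 scale, the Wald statistic (a score), and the p-value with its adjusted p-value. Calls are the authors' adjusted p below 0.05, as deposited.

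Reads per library were computed from the deposited mean, which is printed to 15 digits. Its 4 lowest steps give size factors of 1.14, 0.987, 0.978 and 0.915; whole-number combinations were searched for means up to 5000 and checked against the deposited fold change. This gave 22386 of 22388 nuclear genes searched. Within each ploidy the library of larger size factor is called A, and the letters are not matched to replicate numbers. Log ratios of libraries add 0.5 to each normalized count. limma 3.58.1 (R 4.3.3; Python 3.11.15) was run on log2 of those counts as an alternative, after a check on simulated data. Intervals from reads would cover counting error only.

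Members and lists were chosen with earlier results of these data known. The text names called identifiers whose mean count reached 100, the 5 of highest mean count per organelle, and up to 4 list genes of lowest p; the part of this rule given as organelle gene symbols could not be applied, and identifiers named for an unadjusted p below 0.05 or for their place in a stretch were chosen after their values were seen. Of 53 genes on the 5 lists, 4 had no name in the gene table and were left out.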

Additional observations from a re-analysis of the deposited data

How the results depend on the processing

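No paired analysis was possible because the recovered libraries carry no replicate number. With 5 other settings (Benjamini-Hochberg adjustment over every gene or over those whose mean count reached 10, recentring on nuclear genes, an empirical null, an added 2-fold limit), the counts of chloroplast calls stayed at 1 higher and 1 lower and the mitochondrial count at 0, except that the 2-fold limit left 0 chloroplast identifiers lower. The nuclear genes of organelle expression went from 10 calls to 6 with the empirical null and 0 with the 2-fold limit. Over all genes, calls went from 3290 to 1799 with the empirical null, to 1094 with the 2-fold limit and to 4651 with limma.

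Alternatives added after seeing the data: limma on recovered counts gave 5 chloroplast and 2 mitochondrial identifiers higher. Leaving out 1 library each in limma gave 0 to 3 chloroplast identifiers higher, 0 to 0 lower, 0 to 1 mitochondrial identifiers higher and 0 to 1 nuclear list genes. These fits called 0 to 372 of 20781 genes in all, so a lost call says little about stability. None of the 4 called ATCG00630 (log2 fold change 1.09 to 1.49, adjusted p 0.0687 to 0.125) or ATCG00190 (−1.03 to −0.59, adjusted p 0.059 to 0.177). The median log2 fold change ran from −0.20 to 0.75 for the chloroplast and from −0.11 to 1.02 for the mitochondrion, negative without tetraploid A in both (−0.203 and −0.109). The 33 chloroplast identifiers at least 2-fold higher in tetraploid A than B stayed 33 when scaled to the nuclear median ratio or nuclear total. The recovered nuclear genes differed by only 1.01-fold between these libraries, so either scaling could hardly move that count.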

Other observations

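Nuclear genes that respond to mitochondrial stress were read in both accessions. In Col-0, 2 of 7 were higher and 1 was lower in the authors' deposited table, where 15.4% of all tested genes were called. NDB2, an alternative NADH dehydrogenase of the mitochondrial inner membrane, had 426 and 236 normalized counts in the diploids and 887 and 839 in the tetraploids, and rose by 1.38 ± 0.41 on the log2 scale (adjusted p = 0.00748, DESeq2). The transcription factor gene NAC13 rose by 0.56 ± 0.15, and NDA1, another alternative NADH dehydrogenase gene, fell by 0.23 ± 0.08. AOX1A, the alternative oxidase gene most used as a marker of this response, was not called (0.05 ± 0.17). In Ler, 1 of the 6 with an adjusted p, AOX1A, was higher (0.56 ± 0.16, adjusted p = 0.0147, authors' DESeq2). The background in Ler was 5.1% of all tested genes called. The difference between the accessions was not tested. The 7 genes had ratios of tetraploid A to B from 0.69 to 1.14 in Col-0. The diploid libraries were less even for some of them. AOX1D had 206 normalized counts in diploid A and 15.2 in diploid B, and BCS1 (OM66) had 256 and 143. Of the 7, only NAC13 was lower in diploid A than in diploid B.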
